A study of Mus musculus with 8 samples.

Results

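Genes that mark reactive glia, stressed photoreceptors and the acute-phase response were followed in RNA-seq libraries of mouse peripheral retina at postnatal day 12. They were Lcn2, C3, Saa3, Serpina3n, Gfap, Edn2, Fgf2, Stat3, Socs3 and Osmr, 10 of the 23284 gene rows in the counts. The members were picked by name with earlier results of the same libraries known, including the levels of Lcn2 and C3 in both groups. Their group values are therefore given as a description, and where calls over all genes are counted for them, nothing is read from the counts. The question behind the comparison is what MYCN overexpression adds to loss of Rb1 in the retina.

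Each group held 4 libraries. The group labelled Rb null, TET-MYCN (TET-MYCN below) carried Cre driven by the alpha enhancer of Pax6, a Cre-dependent transactivator at Rosa26 (Rosa26LSL-RTTA) and a tetracycline-regulated MYCN transgene (TRE-MYCN). The group labelled Rb null carried the same Cre with floxed Rb1 (Rblox/lox). The series title and the genotype label give floxed Rb1 for the TET-MYCN group too, while the series design text omits it there. The enhancer acts in progenitors of the peripheral retina, so cells of other origin, such as retinal astrocytes, microglia and vessels, are not expected to express Cre. Doxycycline treatment, the number of animals per library and batches are not given in the labels used here, and p-values measure only the spread, possibly technical, between these libraries.

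Müller glia, the radial glia of the retina, respond to injury by raising intermediate filaments, above all GFAP, and by secreting immune and acute-phase proteins. In models of retinal damage in mice, stressed photoreceptors release endothelin 2, and cytokines of the leukaemia inhibitory factor and oncostatin M family signal through the shared receptor gp130, JAK kinases and STAT3, with SOCS3 as the feedback inhibitor. Lipocalin 2, serum amyloid A3, complement C3 and the protease inhibitor encoded by Serpina3n are among the secreted products by which reactive glia are recognised.

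Counts given to genes summed to between 16166000 and 22873979 in TET-MYCN libraries and between 14872131 and 20007977 in Rb null libraries. Values per library stand in the order of the replicate numbers. One count was worth 0.0433 to 0.0618 CPM (counts relative to the library total, scaled by TMM) in the TET-MYCN libraries and 0.0509 to 0.0673 CPM in Rb null. Mouse Mycn averaged 242 ± 37.6 CPM in TET-MYCN and 231 ± 95 CPM in Rb null (SD, n = 4 each; log2 fold change 0.07 ± 0.28, adjusted p = 0.934, edgeR). Rb1 averaged 154 ± 23.6 CPM in TET-MYCN and 161 ± 21.9 CPM in Rb null (-0.06 ± 0.14, adjusted p = 0.883). These genes check the labels little, since reads of a transgene need not be counted at mouse Mycn and a floxed gene can keep most exons. In 2 libraries values stood apart: TET-MYCN 2 was the lowest of its group for 6 of the 10 genes, and Rb null 3 had the most lens and rod reads.

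Lcn2, Saa3, C3 and Gfap had higher means in TET-MYCN, carried by libraries 1, 3 and 4 for Lcn2 and Gfap, while TET-MYCN 2 lay at or near the Rb null levels. The groups overlapped for Lcn2 and Gfap, and also for the receptor gene Osmr, the transducer gene Stat3, Serpina3n, Socs3, Edn2 and Fgf2. Means were also higher in TET-MYCN for Serpina3n, Socs3 and Edn2, and lower for Osmr, Stat3 and Fgf2. Of the 8 members that passed the filter on low counts, 0 passed an adjusted p of 0.05 (quasi-likelihood test of edgeR with Benjamini-Hochberg adjustment), where 0.0596% of the 15106 genes tested were called, 0.053% as higher and 0.00662% as lower. At an unadjusted p of 0.05 it was 2 of 8, against 15.8% of all genes tested. DESeq2 called 2 of the 8, Lcn2 and C3, both as higher, where it called 3.51% of the genes in either direction and 2.14% as higher, and limma-voom called 0 members and 0% of all genes. Since the members were chosen on this contrast, nothing is read from these counts.

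**Figure D1:**
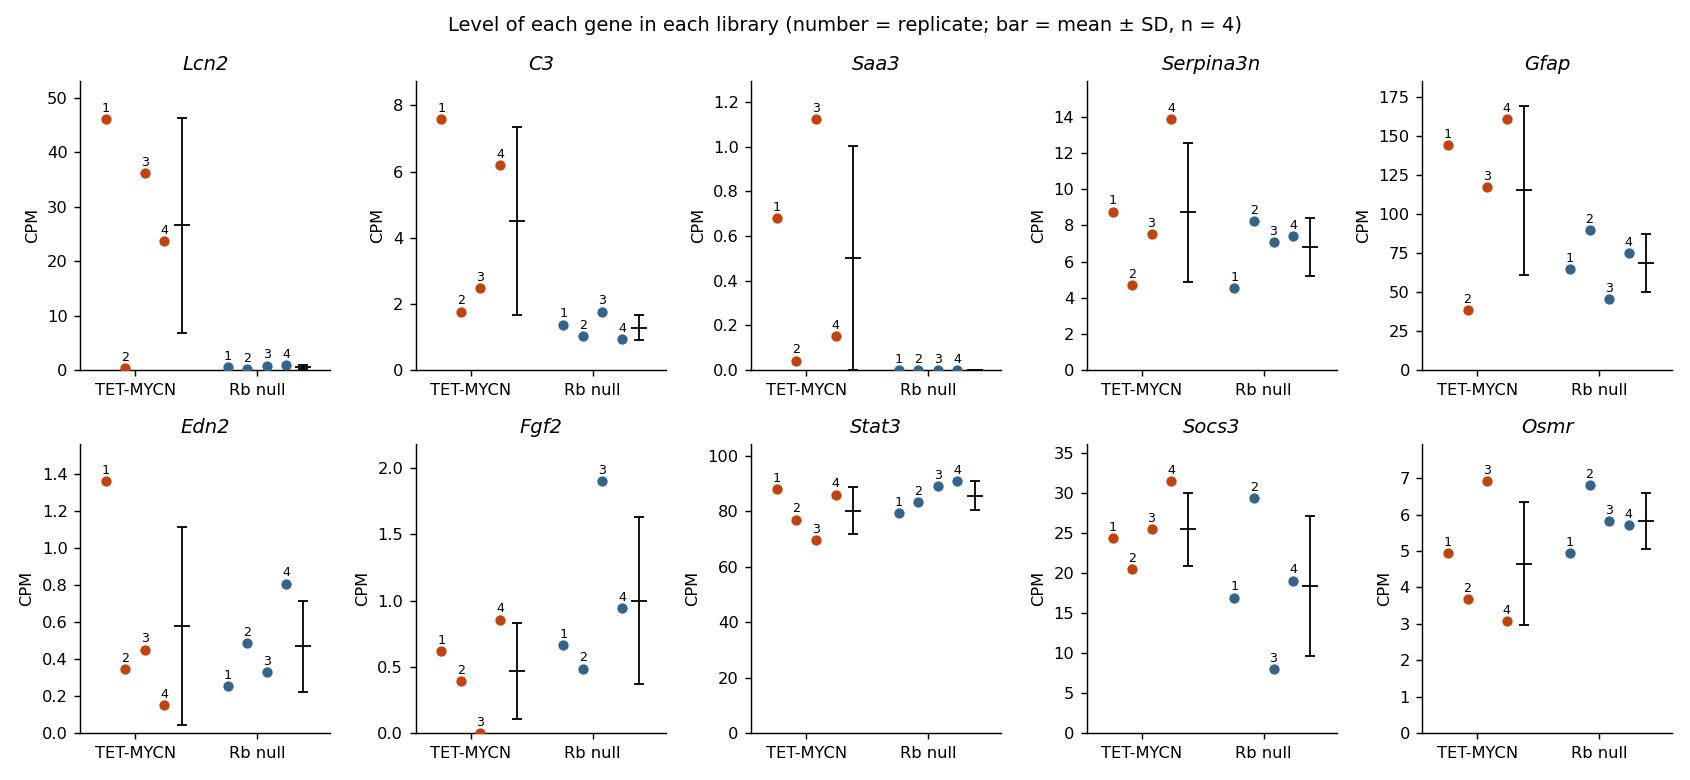
Level of each of the 10 genes in each library, in CPM on a linear axis from 0, with TET-MYCN left of Rb null; numbers mark the replicate and the bar gives the mean ± SD (n = 4). Lcn2 stood at 23.7 to 46.1 CPM in TET-MYCN 1, 3 and 4 and at 0.346 CPM in TET-MYCN 2, with all Rb null libraries at 0.875 CPM or lower.

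Lcn2 encodes lipocalin 2, which withholds iron from bacteria by binding their siderophores. It had 747, 8, 643 and 471 counts in TET-MYCN libraries and 10, 3, 13 and 13 counts in Rb null libraries. Libraries TET-MYCN 1, 3 and 4 stood far above every other library, and TET-MYCN 2 lay inside the Rb null range, so the groups overlapped. The group means were 26.6 ± 19.8 CPM in TET-MYCN and 0.605 ± 0.327 CPM in Rb null (SD, n = 4 each), a log2 fold change of 5.46 ± 1.12 (TET-MYCN over Rb null, standard error of the fit). Summed over the libraries, the ratio was 41.2 and its 95% exact binomial interval ran from 30.1 to 58.2, which covers counting error only and not the spread between libraries. Without TET-MYCN 2, the library of its group with the lowest Lcn2, the log2 fold change was 5.87 ± 0.40. That value leaves out a library for its level and is no test.

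Saa3 encodes serum amyloid A3, an acute-phase apolipoprotein made outside the liver. It had 11, 1, 20 and 3 counts in TET-MYCN libraries and 0 counts in all 4 Rb null libraries. Every TET-MYCN library was above every Rb null library, but TET-MYCN 2 by a single read. Too few libraries reached the count minimum for Saa3 to enter the fit. Against a floor of 3 counts over the Rb null group (0.0453 CPM), the summed level was at least 10-fold higher in TET-MYCN. That bound leaves out the spread between libraries and rests mostly on TET-MYCN 1 and 3, as TET-MYCN 2 and 4 had 1 and 3 counts. Of the 50-base words of the Saa3 transcript, 4.60% occur in other genes, led by Gm37376 and Malat1. The related genes Saa1 and Saa2 had 5 and 10 counts in all TET-MYCN libraries together, against 6 and 5 in the Rb null libraries.

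C3, the central complement component that tags targets for phagocytes, was at 7.60, 1.77, 2.47 and 6.19 CPM in the TET-MYCN libraries, against 1.37, 1.03, 1.77 and 0.942 CPM in Rb null. TET-MYCN 1 and 4 were high, and TET-MYCN 2 and Rb null 3 were nearly level, with 41 and 27 counts. That pair differed in the third digit after the point, and the groups therefore did not overlap. C3 was thus 1 of the 8 tested members whose groups did not overlap with TET-MYCN higher, against 4.36% of all genes tested. In 0 of the 8 was TET-MYCN lower without overlap, against 3.29% (7.65% in either direction). Saa3, also without overlap, was not among the genes tested. The means of C3 were 4.51 ± 2.83 CPM in TET-MYCN and 1.28 ± 0.376 CPM in Rb null, a log2 fold change of 1.8 ± 0.47, and 2.07 ± 0.40 without TET-MYCN 2. The last value leaves out the library of its group with the lowest C3 and is no test.

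Serpina3n, a serine protease inhibitor of the antichymotrypsin family, was at 8.77, 4.72, 7.53 and 13.9 CPM in the TET-MYCN libraries, against 4.53, 8.26, 7.08 and 7.40 CPM in Rb null. Only TET-MYCN 4 stood clear of the Rb null range by more than the SD of the Rb null libraries. The means were 8.73 ± 3.84 CPM in TET-MYCN and 6.82 ± 1.6 CPM in Rb null, and the log2 fold change of 0.36 ± 0.31 was close to its standard error. It was 0.04 without TET-MYCN 4. In mice the Serpina3 cluster holds many near copies, and 6.90% of the 50-base words of Serpina3n occur in other genes, so its level is uncertain to that extent. Its relatives Serpina3h and Serpina3i had log2 fold changes of 0.04 ± 0.79 and 0.09 ± 0.75; both are named after their values were seen.

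Gfap, the intermediate filament of astrocytes and of reactive Müller glia, was at 144, 38.7, 117 and 161 CPM in TET-MYCN libraries. In Rb null libraries it was at 64.7, 90.0, 45.4 and 75.2 CPM. TET-MYCN 1, 3 and 4 were above all Rb null libraries, and TET-MYCN 2 was the lowest of all 8. The means were 115 ± 54.3 CPM in TET-MYCN and 68.8 ± 18.8 CPM in Rb null, a log2 fold change of 0.75 ± 0.38, and 1.03 ± 0.22 without TET-MYCN 2. The last value leaves out the library with the lowest Gfap and is no test. Of other glial filaments, Vim, the vimentin gene, averaged 334 ± 30.2 CPM in TET-MYCN and 294 ± 42.6 CPM in Rb null (log2 fold change 0.18 ± 0.13, adjusted p = 0.511, edgeR). Nes, which codes for nestin of progenitors and reactive glia, averaged 29.4 ± 6.98 CPM in TET-MYCN and 21.2 ± 4.42 CPM in Rb null (0.47 ± 0.20, adjusted p = 0.302), and Synm, which codes for synemin, averaged 34.1 ± 7.55 CPM in TET-MYCN and 43.8 ± 3.80 CPM in Rb null (-0.36 ± 0.15, adjusted p = 0.296).

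Of the genes upstream in glial signalling, Osmr, the receptor chain that pairs with gp130 to bind oncostatin M, was at 4.94, 3.68, 6.91 and 3.07 CPM in TET-MYCN libraries. It was at 4.94, 6.80, 5.83 and 5.72 CPM in Rb null. The groups overlapped, with the lowest values in TET-MYCN 4 and 2 and the highest in TET-MYCN 3, and the log2 fold change was -0.33 ± 0.26. Stat3, the transcription factor that these receptors activate, was at 88.2, 77.0, 69.8 and 86.1 CPM in the TET-MYCN libraries, against 79.4, 83.5, 89.3 and 90.8 CPM in Rb null. It varied least of the 10 genes, with overlapping groups and a log2 fold change of -0.10 ± 0.10. Its activity is set by phosphorylation, which mRNA counts do not measure. Socs3, the inhibitor that STAT3 induces, was at 24.3, 20.5, 25.5 and 31.4 CPM in the TET-MYCN libraries, against 16.9, 29.3, 8.0 and 19.0 CPM in Rb null. The groups overlapped, since Rb null 2 was second highest of all, and Rb null 3 was lowest by far. The log2 fold change of Socs3 was 0.47 ± 0.32, and 0.22 ± 0.22 without Rb null 3. That library had the most lens and rod reads and the lowest sum of microglia and macrophage markers, and their part was not tested.

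Both photoreceptor stress signals were near the limit of detection. Edn2, the ligand that damaged photoreceptors release towards endothelin receptors of Müller glia, had 22, 8, 8 and 3 counts in TET-MYCN libraries and 5, 8, 5 and 12 counts in Rb null libraries. TET-MYCN 1 was highest, TET-MYCN 4 was lowest in CPM, and the groups overlapped. Edn2 was not tested for lack of counts, and the ratio of its summed counts was 1.18 with a counting interval of 0.717 to 1.95. Fgf2, a survival factor for photoreceptors, had 10, 9, 0 and 17 counts in TET-MYCN libraries and 13, 8, 29 and 14 counts in Rb null libraries. TET-MYCN 3 was at 0 and Rb null 3 was highest, with the groups overlapping at a log2 fold change of -1.07 ± 0.68, and -0.56 ± 0.70 without Rb null 3. The summed ratio was 0.484, with a counting interval of 0.313 to 0.739. The Nudt6 gene on the other strand overlaps 9.44% of the exon bases of Fgf2 in GENCODE, and since the use of strand in counting is not stated, reads of the pair cannot be told apart there. Nudt6, named for this overlap, was at 4.32, 2.25, 3.60 and 3.73 CPM in the TET-MYCN libraries, against 2.85, 2.13, 3.34 and 2.69 CPM in Rb null.

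Levels between genes were compared as CPM per kilobase of the longest coding transcript in GENCODE, which is 2200 bases for Saa3, so a shorter main transcript would place it higher. In TET-MYCN libraries the order was Gfap (43.6 ± 20.5), Lcn2 (29.1 ± 21.6), Stat3 (13.3 ± 1.41), Socs3 (9.97 ± 1.77), Serpina3n (4.23 ± 1.86), C3 (0.878 ± 0.551), Osmr (0.847 ± 0.309), Edn2 (0.394 ± 0.367), Saa3 (0.227 ± 0.228) and Fgf2 (0.0780 ± 0.0610). In Rb null libraries Gfap (26.0 ± 7.08) again led, followed by Stat3 (14.2 ± 0.876), Socs3 (7.18 ± 3.44), Serpina3n (3.30 ± 0.777), Osmr (1.06 ± 0.139), Lcn2 (0.661 ± 0.358), Edn2 (0.321 ± 0.168), C3 (0.249 ± 0.0732), Fgf2 (0.167 ± 0.106) and Saa3 at 0. Lcn2 thus ranked 2nd in TET-MYCN libraries and 6th in Rb null libraries. In TET-MYCN libraries the neighbours from Gfap to Stat3 and from C3 to Fgf2 lay within their SDs of each other. In Rb null libraries the same held for Socs3 and Serpina3n and for the neighbours from Osmr to Fgf2.

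**Figure D2:**
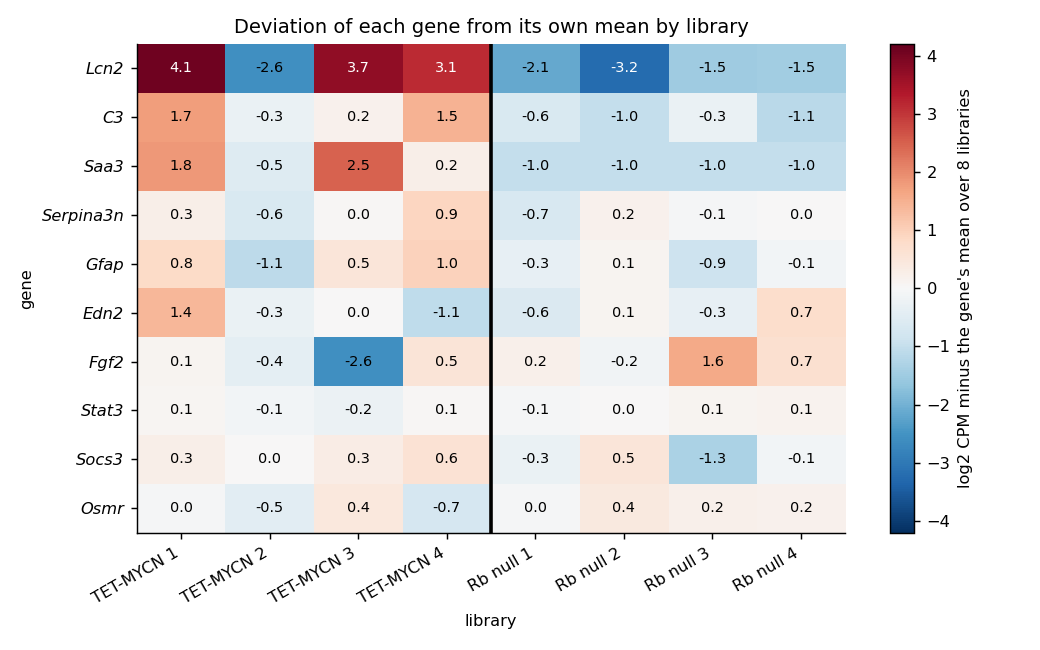
Log2 CPM of each gene (prior count 2) minus its mean over the 8 libraries, with TET-MYCN libraries left of the line and Rb null libraries right of it. Lcn2 deviated by 4.08, -2.58, 3.73 and 3.12 in TET-MYCN libraries and by -1.47 to -3.22 in the Rb null libraries, and Stat3 by 0.25 or less in any library.

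The spread within the TET-MYCN group was wide for most members. The SD of log2 CPM of Lcn2 was 3.14 in TET-MYCN libraries and 0.82 in Rb null libraries, and only 7 of the 15106 genes tested had a larger SD in TET-MYCN libraries. For all genes tested the median SD was 0.25 in TET-MYCN libraries and 0.17 in Rb null libraries. In 9 of the 10 members the TET-MYCN SD was the larger, which also held for 70% of all genes tested. Socs3 went the other way, at 0.25 in TET-MYCN libraries and 0.77 in Rb null libraries. The members did not share 1 order of libraries. C3 and Edn2 were highest in TET-MYCN 1, Saa3 in TET-MYCN 3, and Serpina3n, Gfap and Socs3 in TET-MYCN 4.

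The upstream sequences of 4 members are shown because they hold the STAT or C/EBP motifs searched for, and 3 of them are the genes with the largest ratios between the groups. STAT3 and C/EBP proteins are the classical activators of acute-phase genes in liver. The sequences are the 250 bases before the RefSeq start of each gene in build GRCm38.p6, in the direction of transcription, and the authors' counts came from build mm9. Capitals mark a motif match on either strand.
Lcn2: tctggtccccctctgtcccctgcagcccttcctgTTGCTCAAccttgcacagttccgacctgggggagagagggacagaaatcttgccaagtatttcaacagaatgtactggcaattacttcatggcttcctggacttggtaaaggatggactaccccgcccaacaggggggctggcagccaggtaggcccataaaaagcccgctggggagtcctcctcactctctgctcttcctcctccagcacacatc
C3: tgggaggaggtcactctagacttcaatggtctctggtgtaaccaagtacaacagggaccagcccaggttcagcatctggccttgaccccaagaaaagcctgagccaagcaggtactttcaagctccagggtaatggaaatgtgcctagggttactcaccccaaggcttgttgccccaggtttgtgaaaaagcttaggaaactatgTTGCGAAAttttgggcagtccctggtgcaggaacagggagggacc
Saa3: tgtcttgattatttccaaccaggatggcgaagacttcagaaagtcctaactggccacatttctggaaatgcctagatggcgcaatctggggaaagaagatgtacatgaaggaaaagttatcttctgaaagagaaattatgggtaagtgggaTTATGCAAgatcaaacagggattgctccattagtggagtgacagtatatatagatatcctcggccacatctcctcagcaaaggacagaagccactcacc
Socs3: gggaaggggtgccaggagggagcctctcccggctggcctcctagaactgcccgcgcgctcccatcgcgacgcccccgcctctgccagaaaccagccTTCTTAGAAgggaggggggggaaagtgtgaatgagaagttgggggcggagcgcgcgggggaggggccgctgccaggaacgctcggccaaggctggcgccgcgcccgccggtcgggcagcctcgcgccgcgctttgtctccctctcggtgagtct

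These windows lie at chr2:32387740-32387989 (minus strand) for Lcn2, chr17:57228137-57228386 (minus strand) for C3, chr7:46715677-46715926 (minus strand) for Saa3 and chr11:117969367-117969616 (minus strand) for Socs3. The C/EBP motif TTGCNNAA, searched on both strands, matched in Lcn2 from 216 to 209 bases before the start, in Saa3 from 99 to 92 and in C3 from 45 to 38. It was found in 3 of the 10 members' windows and in 9.56% of all 32851 RefSeq windows of the same length. The STAT motif TTCNNNGAA matched in Socs3 alone, 154 to 146 bases before the start, and in 7.02% of all windows. The NF-kB consensus, the AP-1 motif TGANTCA and the E-box CACGTG bound by MYC and MAX matched in 0 of the 10 windows, against 7.25%, 6.75% and 6.02% of all windows. Each window shown held a single match to these motifs. A match describes the letters only, and no match says nothing of the factor.

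The genes whose pattern over the 8 libraries was most like a member's were taken by the smallest root mean square difference of centred log2 CPM. For Lcn2 they were Spp1 (osteopontin), Mmp12 (macrophage metalloelastase) and Gpnmb (a lysosomal glycoprotein), at 1.20, 1.21 and 1.56, against a median of 2.89 over 14480 genes. Spp1 was at 265, 18.7, 105 and 402 CPM in the TET-MYCN libraries, against 3.67 to 7.0 CPM in Rb null. In TET-MYCN 2 these 3 genes stayed above the Rb null range while Lcn2 did not. For C3 the nearest were Mecom, Serpinb8 and Wfdc2 (0.271, 0.284 and 0.315, median 1.02), all highest in TET-MYCN 1 and 4. For Serpina3n they were Bace2, Tekt2 and Cela1 (0.0935, 0.151 and 0.164, median 0.524). For Gfap, Islr and Lyz2, the macrophage lysozyme, were among the nearest 3 (0.248 and 0.273, median 0.732). All values rest on 8 libraries that share the contrast and are descriptions.

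**Figure D3:**
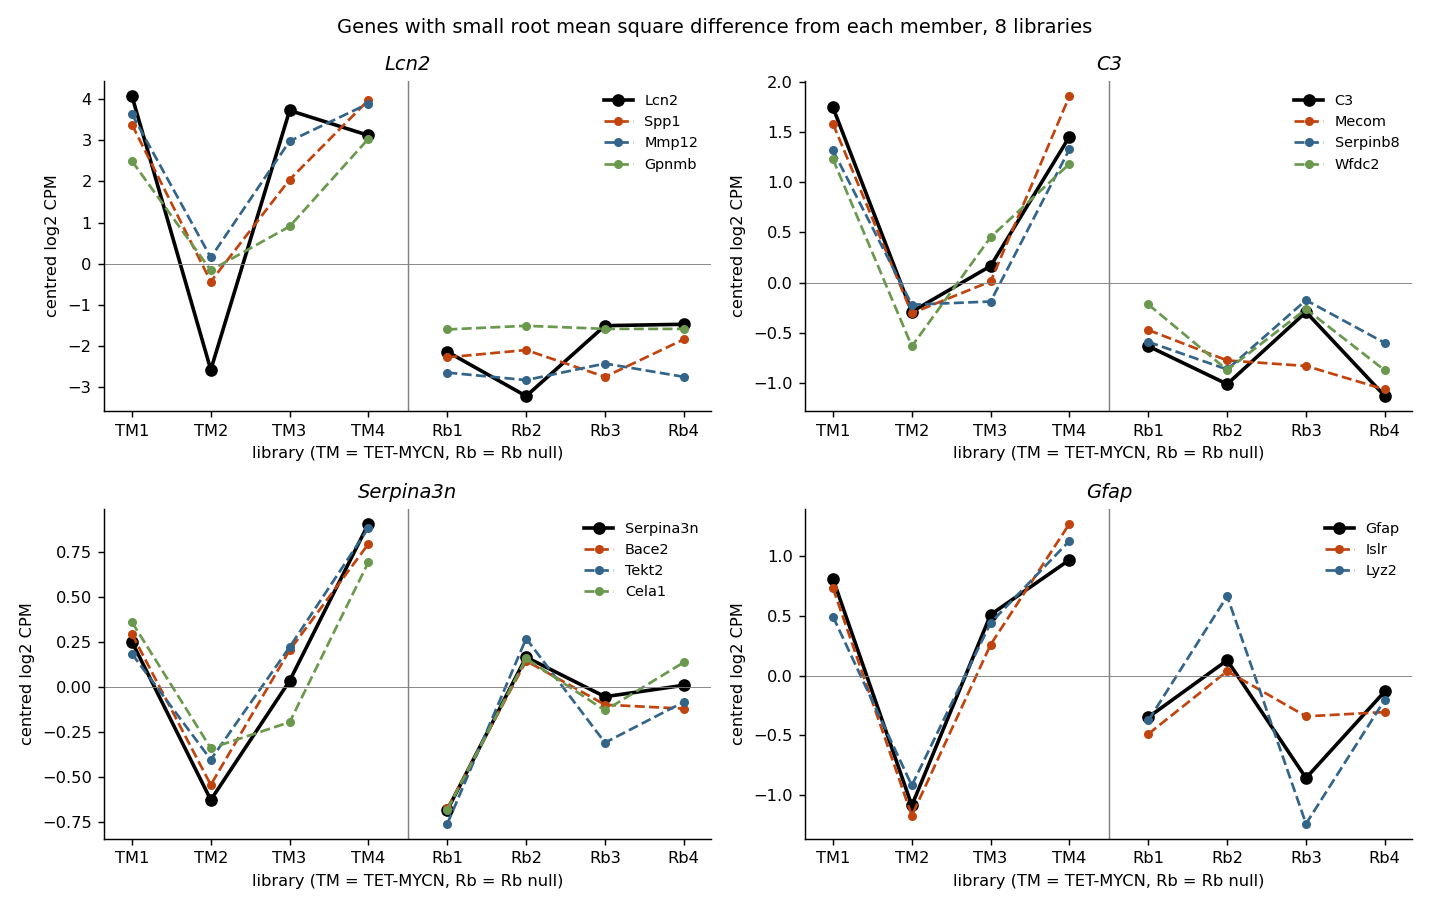
Centred log2 CPM by library of Lcn2, C3, Serpina3n and Gfap (black) and of the named genes with the smallest root mean square difference from each (3 for the first 3 members, 2 for Gfap), TET-MYCN libraries (TM) left of Rb null libraries (Rb). Lcn2 and Mmp12 were high in TET-MYCN 1, 3 and 4, and in TET-MYCN 2 Mmp12 was at 1.73 CPM, against 0.122 to 0.197 CPM in Rb null.

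Pathway lists were read against all genes tested, of which 52.2% had a positive log2 fold change and the median was 0.01. In the 13 lists beside the members, 0 of 144 genes tested passed an adjusted p of 0.05 with edgeR, 27 had an unadjusted p under 0.05 (15.8% of all genes tested did), DESeq2 called 4 (3.51% of all genes) and limma-voom called 0. Some genes stand in more than 1 list. Over all genes tested, the groups did not overlap in 4.36% with TET-MYCN higher and in 3.29% with TET-MYCN lower.

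Ligands of the gp130 family were low in both groups. Of 9 listed, 6 had enough counts to test, and 5 of these were positive (median log2 fold change 0.21). Lif, the cytokine that Müller glia make after photoreceptor damage, was at 1.33 ± 0.313 CPM in TET-MYCN and 1.24 ± 0.469 CPM in Rb null (0.10 ± 0.31). Clcf1, a cardiotrophin-like ligand, was at 1.95 ± 0.192 CPM in TET-MYCN and 1.47 ± 0.115 CPM in Rb null (0.41 ± 0.20, adjusted p = 0.345, edgeR), with groups that did not overlap. Ctf1, Il11 and Cntf had log2 fold changes of 0.29 ± 0.29, 0.12 ± 0.22 and -0.17 ± 0.30. Osm, the ligand of Osmr, had 35 counts in all TET-MYCN libraries together and 8 in the Rb null libraries, and its groups overlapped. By library Osm was at 0.185, 0.260, 0.787 and 0.604 CPM in the TET-MYCN libraries, against 0.102, 0.122, 0.0655 and 0.202 CPM in Rb null. Il6 had 8 counts in TET-MYCN and 5 in Rb null, and Il27 had 6 in TET-MYCN and 9 in Rb null. Among receptors, kinases, STATs and inhibitors, 16 of 21 genes were negative, with a median of -0.14. Socs2, an inhibitor of growth hormone signalling, was at 32.2 ± 4.03 CPM in TET-MYCN and 24.4 ± 2.12 CPM in Rb null (0.40 ± 0.12, adjusted p = 0.201), Pias3, an inhibitor of STAT3, at 208 ± 40.1 CPM in TET-MYCN and 297 ± 55.8 CPM in Rb null (-0.51 ± 0.18, adjusted p = 0.229), and Stat5a at 3.28 ± 1.05 CPM in TET-MYCN and 5.09 ± 0.414 CPM in Rb null (-0.63 ± 0.23, adjusted p = 0.244).

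Most other acute-phase genes were too low to test. Of 30 listed, 12 had enough counts to test, and 10 of these were positive with a median of 0.29. Lbp, which presents bacterial lipopolysaccharide to immune receptors, was at 3.03, 0.865, 1.52 and 3.27 CPM in the TET-MYCN libraries, against 0.306, 0.851, 0.328 and 0.269 CPM in Rb null. As for C3, TET-MYCN 2 lay just above the highest Rb null library, and the log2 fold change was 2.28 ± 0.52 (adjusted p = 0.157, edgeR). Timp1, an inhibitor of metalloproteinases, was at 2.98 ± 0.862 CPM in TET-MYCN and 1.62 ± 0.258 CPM in Rb null (0.87 ± 0.27, adjusted p = 0.200). Orm2, an acute-phase orosomucoid, was at 0.457 ± 0.135 CPM in TET-MYCN and 0.927 ± 0.265 CPM in Rb null (-1.05 ± 0.33, adjusted p = 0.201), with TET-MYCN lower in groups that did not overlap.

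Lists based on gene sets described for reactive mouse astrocytes were split. They leave out the members, and the shared list also holds Nes, so the counts are those of the lists used here. In bulk tissue the cells that carried these transcripts cannot be told apart. In the set shared between injuries 7 of 9 genes tested were positive (median 0.21) and in the ischaemia set 7 of 9 (median 0.41). In the inflammation set 5 of 11 were positive, and its median of -0.13 turned to 0.08 without TET-MYCN 2 and to 0.18 without Rb null 4. Steap4, a metalloreductase of the shared set, was at 4.57, 0.476, 2.08 and 2.62 CPM in the TET-MYCN libraries, against 0.153, 0.425, 1.11 and 1.14 CPM in Rb null. Like Lcn2, it was high in TET-MYCN 1, 3 and 4 and within the Rb null range in TET-MYCN 2 (1.79 ± 0.69, adjusted p = 0.260, edgeR). Srgn, a proteoglycan of granules, was at 11.9, 1.47, 5.51 and 12.1 CPM in the TET-MYCN libraries, against 1.58 to 2.29 CPM in Rb null (1.95 ± 0.55, adjusted p = 0.173). Cd14, a receptor of lipopolysaccharide, was at 2.66, 0.865, 1.91 and 4.63 CPM in the TET-MYCN libraries, against 0.608 to 1.12 CPM in Rb null (1.37 ± 0.47, adjusted p = 0.227). TET-MYCN 2 lay within the Rb null range for Cd14 and below it for Srgn. Among the rest, log2 fold changes were 0.78 ± 0.23 for Cd109, -0.54 ± 0.22 for Sphk1, -0.48 ± 0.18 for Amigo2 and 0.53 ± 0.25 for Ggta1. Of these, only Cd109 had groups that did not overlap.

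Partners of Edn2 and Fgf2 had small negative medians. In the endothelin system 4 of 5 genes tested were negative (median -0.26), among them Ednrb, the endothelin receptor of Müller glia, at 10.7 ± 3.23 CPM in TET-MYCN and 14.7 ± 1.05 CPM in Rb null (-0.45 ± 0.20, adjusted p = 0.317, edgeR). Ednra and Ece2, a second receptor and a processing protease, had log2 fold changes of -0.36 ± 0.26 and 0.24 ± 0.19. In the FGF system 11 of 16 genes were negative, with a median of -0.12, and of -0.22 without TET-MYCN 2. Fgf1 was at 9.65 ± 2.81 CPM in TET-MYCN and 23.3 ± 8.26 CPM in Rb null (-1.27 ± 0.28, adjusted p = 0.155), with groups that did not overlap. Fgf15 was at 4.69 ± 2.24 CPM in TET-MYCN and 1.72 ± 1.09 CPM in Rb null (1.44 ± 0.45, adjusted p = 0.202), and the receptor Fgfr2 at 4.40 ± 2.17 CPM in TET-MYCN and 2.13 ± 0.188 CPM in Rb null (1.04 ± 0.35, adjusted p = 0.220). The groups of Fgfr2 did not overlap either, with the lowest TET-MYCN library at 2.34 CPM and the highest Rb null library at 2.31 CPM.

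In the complement list 14 of 18 genes tested were positive, with a median of 0.17. C3ar1, the receptor of the C3a fragment, was at 10.2 ± 2.45 CPM in TET-MYCN and 6.82 ± 1.86 CPM in Rb null (0.57 ± 0.24, adjusted p = 0.293, edgeR), and Itgax, a subunit of a receptor for cleaved C3, at 9.66 ± 5.18 CPM in TET-MYCN and 2.90 ± 2.11 CPM in Rb null (1.73 ± 0.56, adjusted p = 0.209). C2 was at 2.90 ± 0.662 CPM in TET-MYCN and 2.05 ± 0.345 CPM in Rb null (0.50 ± 0.23). In the NF-kB, interleukin 1 and TNF list 17 of 22 were positive, with a median of 0.16. Il33 was at 23.6 ± 7.99 CPM in TET-MYCN and 36.2 ± 5.42 CPM in Rb null (-0.62 ± 0.21, adjusted p = 0.227), Bcl3, an NF-kB cofactor, at 2.01 ± 1.22 CPM in TET-MYCN and 0.874 ± 0.485 CPM in Rb null (1.19 ± 0.52) and Icam1 at 4.23 ± 0.963 CPM in TET-MYCN and 3.03 ± 0.620 CPM in Rb null (0.48 ± 0.23). The C/EBP genes of this list, named after their values were seen, were at 25.8 ± 7.24 CPM in TET-MYCN and 19.2 ± 3.19 CPM in Rb null for Cebpd and 34.3 ± 11.8 CPM in TET-MYCN and 33.5 ± 11.1 CPM in Rb null for Cebpb. Cebpd was at 31.7, 15.5, 29.8 and 26.1 CPM in the TET-MYCN libraries, against 15.2 to 22.9 CPM in Rb null. TET-MYCN 2 was the lowest of its group for Cebpd. Cebpb had another order, at 27.7, 29.9, 51.8 and 27.5 CPM in TET-MYCN and 21.0 to 47.9 CPM in Rb null. Both genes had overlapping groups. On the log2 scale the edgeR difference was 0.42 ± 0.22 for Cebpd and 0.03 ± 0.27 for Cebpb (adjusted p = 0.379 and 0.974). Whether either gene acts through the C/EBP motifs was not tested.

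Of 6 partners of lipocalin 2 and serum amyloid A tested, 4 were negative (median -0.16), with Slc22a17, a lipocalin 2 receptor, at 296 ± 28.9 CPM in TET-MYCN and 338 ± 22.1 CPM in Rb null (-0.19 ± 0.11). Scarb1 and Mmp9 had log2 fold changes of -0.43 ± 0.16 and -0.36 ± 0.23. Of 14 early stress factors tested, 10 were negative, and their median of -0.14 turned to 0.12 without Rb null 2 and to 0.01 without TET-MYCN 1. Hmox1, Ier3 and Egr1 had log2 fold changes of 0.39 ± 0.20, -0.40 ± 0.25 and -0.26 ± 0.23. In the small list of glial filaments 3 of 5 were positive (median 0.18).

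**Figure D4:**
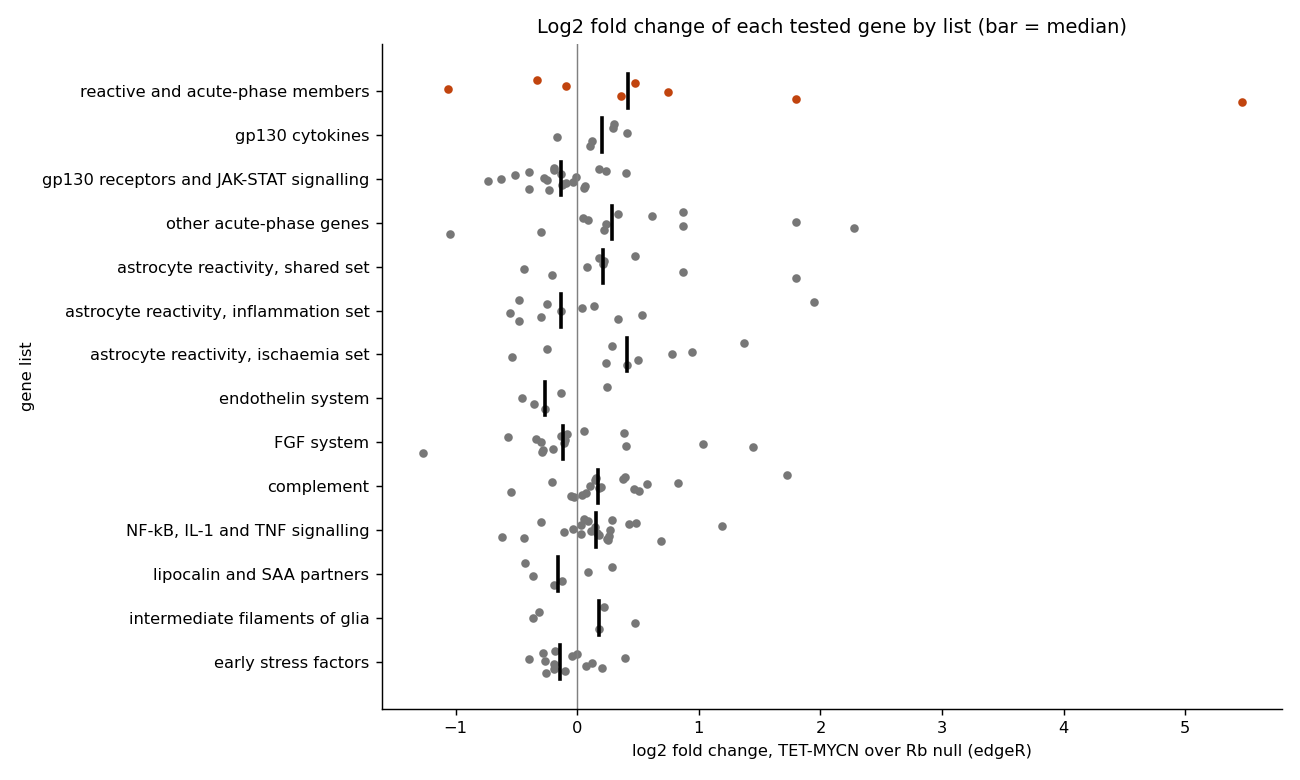
Log2 fold change (TET-MYCN over Rb null, edgeR) of each tested gene by list, with the members on top in orange and the bar at each list's median. Lcn2 at 5.46 lies apart from all other points, the highest of which among the other lists is Lbp at 2.28.

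Markers of the cell types in the tissue were summed per library and set beside these values. In bulk tissue, fewer cells of a type and less RNA per cell cannot be told apart. Müller glia markers were present, at 4626 to 6582 CPM in TET-MYCN and 5980 to 7661 CPM in Rb null, with 11 of 15 genes negative. Aqp4, their water channel, averaged 38.5 ± 10.8 CPM in TET-MYCN and 81.6 ± 9.33 CPM in Rb null. Astrocyte markers summed to 527 to 622 CPM in TET-MYCN and 591 to 694 CPM in Rb null, with 6 of 8 genes negative. Slc1a2 made up most of that sum, averaging 328 CPM in TET-MYCN and 411 CPM in Rb null. Pax2, which marks retinal astrocytes, was at 2.34 ± 0.650 CPM in TET-MYCN and 3.87 ± 1.44 CPM in Rb null. The gap junction gene Gja1, which is also in the ciliary list, was at 53.1 ± 37.4 CPM in TET-MYCN and 11.8 ± 1.38 CPM in Rb null, and Igf2bp3 was at 10.4 ± 1.45 CPM in TET-MYCN and 8.13 ± 1.63 CPM in Rb null. Gfap in Müller glia and in astrocytes cannot be told apart.

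Microglia and macrophage markers summed to 268, 225, 372 and 380 CPM in the TET-MYCN libraries, against 275, 382, 196 and 281 CPM in Rb null, with 13 of 15 genes positive. Both Gfap and this sum were lowest of their group in TET-MYCN 2 and in Rb null 3, and highest in TET-MYCN 4 and Rb null 2. Within each group Socs3 put the libraries in the same order as this sum. Ciliary margin and epithelium markers summed to 242, 104, 101 and 310 CPM in the TET-MYCN libraries, against 73.0, 90.8, 72.6 and 74.3 CPM in Rb null. C3 was likewise highest in TET-MYCN 1 and 4. On average most of the ciliary sum in TET-MYCN came from Zic1 (78.8 CPM, against 23.5 CPM in Rb null) and Gja1 (53.1 CPM, against 11.8 CPM in Rb null). Gja1 is also in the astrocyte list. Of 9 ciliary genes tested 8 were positive, from 0.13 for Mitf to 2.95 for Bmp4, while Opcml was at -0.06. Lcn2 had another order than the microglia and macrophage sum. It was lowest in Rb null 2, at 0.182 CPM, where that sum was highest of all. It was highest in TET-MYCN 1, at 46.1 CPM, where the sum was 268 CPM. Within the TET-MYCN group both were lowest in TET-MYCN 2. The part of microglia, macrophages and ciliary cells in the levels of Lcn2, Gfap, Socs3 and C3 was not tested.

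Neutrophils store lipocalin 2 in their granules. Of their markers, 10 of 12 in the files were under 1 CPM in every library. S100a8 and S100a9 had 3 and 3 counts in all TET-MYCN libraries together, against 1 and 3 in the Rb null libraries, and Itgb2l had 0 counts. The summed list was at 12.4 to 20.2 CPM in TET-MYCN and 14.1 to 21.3 CPM in Rb null, with Cxcr2 and Csf3r, the others, averaging 9.55 and 5.93 CPM in TET-MYCN, against 8.0 and 9.16 CPM in Rb null. Hepatocyte markers were under 1 CPM in every library for 7 of 7 genes. Lens markers summed to 13.6 to 57.8 CPM in TET-MYCN and 26.2 to 583 CPM in Rb null, rod markers to 3018 to 7154 CPM in TET-MYCN and 4237 to 19539 CPM in Rb null. Endothelial markers summed to 394 to 537 CPM in TET-MYCN and 482 to 552 CPM in Rb null, and pigment epithelium markers to 32.3 to 115 CPM in TET-MYCN and 30.7 to 77.0 CPM in Rb null. Kdr made up most of the endothelial sum, averaging 322 CPM in TET-MYCN and 380 CPM in Rb null. The other lists were at 87.3 to 134 CPM in TET-MYCN and 102 to 125 CPM in Rb null for pericytes and fibroblasts, 10.3 to 16.3 CPM in TET-MYCN and 11.3 to 14.5 CPM in Rb null for T and B cells, and 390 to 549 CPM in TET-MYCN and 378 to 478 CPM in Rb null for cornea and conjunctiva, a list that holds Pax6, which retina also expresses. Over 13 marker lists, the smallest p was 0.0286 for the ciliary list, the smallest that the 70 arrangements of 8 libraries allow (two-sided exact permutation test; adjusted p = 0.296). No other list had a smaller adjusted p.

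**Figure D5:**
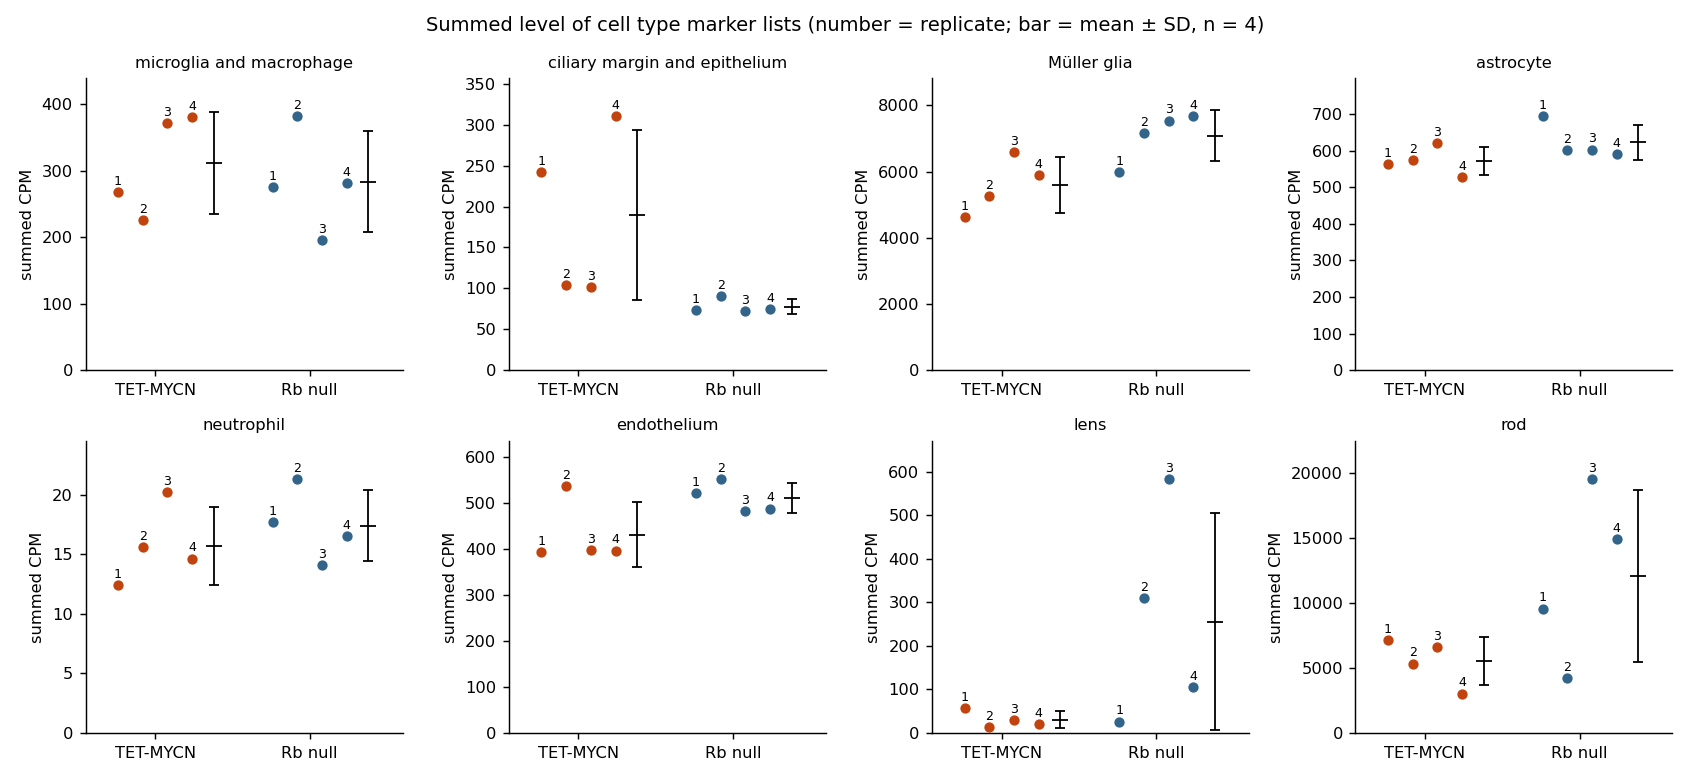
Summed CPM of 8 marker lists in each library on linear axes from 0, TET-MYCN left of Rb null; numbers mark the replicate and the bar gives the mean ± SD (n = 4). The ciliary list was at 101 to 310 CPM in TET-MYCN libraries, all above the 72.6 to 90.8 CPM of the Rb null libraries, while the microglia and neutrophil lists overlapped.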

How the data were processed

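The authors deposited whole-number read counts per gene symbol, 1 table for each of 8 oligo-dT RNA-seq libraries, without normalization. Per the submitters' processing notes, CASAVA 1.8.2, TopHat2 2.0.8b and HTSeq 0.5.4p3 were used with build mm9, with options, annotation and strand setting not given in the sources used here. Reads given to no gene, to several genes or aligned to several places (28.3% to 31.7% of each file) stayed out of library sizes and tests.

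Counts were scaled by TMM, and filterByExpr kept 15106 genes. Genes were tested by robust quasi-likelihood in edgeR 4.0.16 (R 4.3.3), with group as the single term and Benjamini-Hochberg adjustment over these genes at 0.05; a log2 fold change is given ± the fitted standard error. DESeq2 1.42.0 and limma-voom (limma 3.58.1) were alternatives. Each tool was also run on counts simulated with the dispersions that edgeR fitted and without an outlying library. That run is no check of the calls made on these libraries. Likeness used log2 CPM with a prior count of 2 and genes averaging at least 1 CPM. Transcript lengths, exon overlaps and 50-base words came from GENCODE M21 (GRCm38), promoters from RefSeq (GRCm38.p6). Of 341 listed symbols 335 were in the files. Marker sums were compared by exact permutation tests over 70 arrangements. No pair of libraries within a group agreed within sampling noise.

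Named genes were the 10 members, the 3 genes of lowest unadjusted p from each list, every gp130 cytokine, and the 3 genes most like Lcn2, C3, Serpina3n and Gfap; 2 of these genes are not reported here. Members and lists were chosen with earlier results of these data known. Leaving out TET-MYCN 2 and Rb null 3 together was an alternative chosen after seeing the data.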

Additional observations from a re-analysis of the deposited data

Results flagged for a closer look

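Lcn2 in TET-MYCN 2, at 0.346 CPM, lay far below the other 3 libraries of its group, at 23.7 to 46.1 CPM. On the log2 scale its gap to the nearest of them was 0.856 of the group's range, above Dixon's 95% critical value for 4 samples. It was the only such value in 20 groups examined (10 genes in 2 groups), and chance flags about 1 in 20. The next ratio in TET-MYCN libraries was 0.777, for Gfap, also with TET-MYCN 2 lowest.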

How the results depend on the processing

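The count of genes past the threshold was 9, and it varied with the tool and the libraries. It was 17 without a filter on low counts, 530 with DESeq2, 0 with limma-voom, 3 with the replicate number as a block, 0 without Rb null 2 and 3, which had the most lens reads, 3 without TET-MYCN 2 and Rb null 3 (chosen after seeing the data), and 0 to 230 when 1 library was left out. The cause was not tested. The count of members past it was 0, but 2 with DESeq2 (Lcn2 and C3), 0 to 1 with 1 library left out (Lcn2, without TET-MYCN 2, its lowest library, and in no other such fit) and 1 without TET-MYCN 2 and Rb null 3 (Lcn2). Among other pathway genes it was 0, but 4 with DESeq2 and 0 to 2 with 1 library left out.

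Over the 17 alternatives, the 8 fitted members kept the sign of their log2 fold change in each of the 134 values obtained (a filter at 1 CPM left 6 members), and each moved by less than the spread between libraries. That spread is a wide limit for Lcn2, with SDs of log2 CPM of 3.14 in TET-MYCN and 0.82 in Rb null. With limma-voom the log2 fold change was 4.134 ± 2.355 for Lcn2 and -1.615 ± 0.907 for Fgf2. With 1 library left out, log2 fold changes ranged from 5.05 to 5.87 for Lcn2, 1.43 to 2.07 for C3, 0.54 to 1.03 for Gfap, 0.04 to 0.56 for Serpina3n, 0.22 to 0.79 for Socs3, -0.58 to -0.17 for Osmr, -1.54 to -0.56 for Fgf2 and -0.15 to -0.03 for Stat3. List medians ranged from -0.22 to -0.11 for the FGF system, -0.33 to -0.15 for endothelin, 0.09 to 0.34 for gp130 cytokines, 0.20 to 0.45 for other acute-phase genes, 0.08 to 0.22 for complement, 0.08 to 0.26 for NF-kB, -0.24 to -0.12 for lipocalin partners and 0.04 to 0.27 for glial filaments. The astrocyte inflammation list's median of -0.13 changed sign to 0.18 without Rb null 4, 0.08 without TET-MYCN 2 and 0.06 without TET-MYCN 2 and Rb null 3. That of early stress factors, -0.14, became 0.12 without Rb null 2 and 0.01 without TET-MYCN 1. The equal replicate numbers share no stated origin, and deviations from the group means of same-numbered libraries correlated at -0.295 to -0.0402 across genes, so the numbers were not taken as pairs. Low counts limit Saa3, Edn2 and Fgf2, where 3 counts corresponded to 0.130 to 0.202 CPM.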
